A study of Homo sapiens with 6 samples.

Results

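The 70 genes described here come from families of secreted and membrane-bound proteases, many of which cut the extracellular matrix, and of their inhibitors. These are matrix metalloproteinases (MMP), ADAM and ADAMTS metalloproteinases, the tissue inhibitors of metalloproteinases (TIMP), and the plasminogen activators PLAU and PLAT with the receptor PLAUR. The 70 were chosen by symbol alone, as MMP, ADAM or ADAMTS followed by a number, TIMP followed by 1 digit, or 1 of the 3 plasminogen symbols. Not every member is a working protease or inhibitor, and ADAM5 and ADAM6 are annotated as pseudogenes. The symbol rule matched 70 of the 59074 genes in the table, with 22 MMP, 22 ADAM, 19 ADAMTS and 4 TIMP genes among them.

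LN-229, T98G and U251 are established lines derived from glioblastoma, and the RNA of all 3 was sequenced. Each line was transfected for 72 h with siPOOLs (pools of siRNAs) that were either non-target (siControl) or directed against the long non-coding RNA HOTAIRM1 (siHOTAIRM1), and each line and condition gave 1 library, 6 in all. No line had a replicate library, so the knock-down was compared over the 3 lines as replicates, and values within a line have no test. Values are CPM, the reads of a gene scaled to the size of the library, and depth ranged from 52.3 to 104 M reads. A level of 3 reads, 0.0289 to 0.0574 CPM depending on the library, was taken as the smallest that could be detected.

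HOTAIRM1 was lower in every siHOTAIRM1 library, at 0.952 against 1.99 CPM in LN-229, 2.14 against 3.49 CPM in T98G and 0.622 against 1.27 CPM in U251, so part of the transcript remained in each line. The lines differed in glial markers. NES was at 360 to 368 CPM in LN-229 and at 329 to 507 CPM in U251 but at 0.866 to 0.956 CPM in T98G, where GFAP reached 0.055 CPM, SOX2 reached 0.0145 CPM and S100B was listed at 0. OLIG2 was instead lowest in U251, at 0.0574 and 0 CPM in the siControl and siHOTAIRM1 libraries. It was at 0.956 and 0.577 CPM in T98G and at 1.43 and 1.69 CPM in LN-229. Of 5 leukocyte markers, CD68 alone passed 1 CPM. It was at 7.80 and 2.72 CPM in the siControl and siHOTAIRM1 libraries of T98G, with PTPRC at 0.0869 and 0.0412 CPM and AIF1 and CD3E at 0 there. CD68 was also lower after knock-down in U251, at 1.06 and 0.324 CPM, and was at 0.785 and 0.801 CPM in LN-229. The median gene also differed between the T98G libraries, by -0.19 on the scale of log2(CPM + 1), against 0.01 in LN-229 and -0.03 in U251. The part of these shifts in the T98G values below was not tested, and for the genes that changed most in T98G the change is also given relative to its median gene.

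MMPs are made as inactive proenzymes and use a zinc ion to cut collagens, gelatins, laminins and other matrix proteins. ADAMs are mostly membrane-anchored and release the outer domains of growth factors, cytokines and adhesion molecules, whereas ADAMTS enzymes are secreted, and several of them cut the large chondroitin sulfate proteoglycans (aggrecan, versican, brevican) that fill much of the brain matrix. TIMPs bind the active site of these metalloproteinases. PLAU and PLAT turn plasminogen into plasmin, which degrades fibrin and can activate proMMPs, and PLAUR holds PLAU at the cell surface. Glioma cells are known to use these enzymes when they move through brain tissue.

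Of the 70 genes, 58 reached 3 reads in at least 1 library and 37 in all 6. The other 12 never did: ADAM2, ADAM6, ADAM7, ADAM18, ADAM29, ADAM30, ADAM33, ADAMTS8, ADAMTS18, MMP20, MMP21 and MMP26. To be tested, a gene had to average 1 CPM or more across all 6 libraries, and 36 of the 70 had it (9 MMP, 9 ADAM, 11 ADAMTS, all 4 TIMP and all 3 plasminogen genes). The 34 left out are described only by their levels. Since a gene high in 1 line passes this mean, the 36 are not a sample of the whole family.

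**Figure D1:**
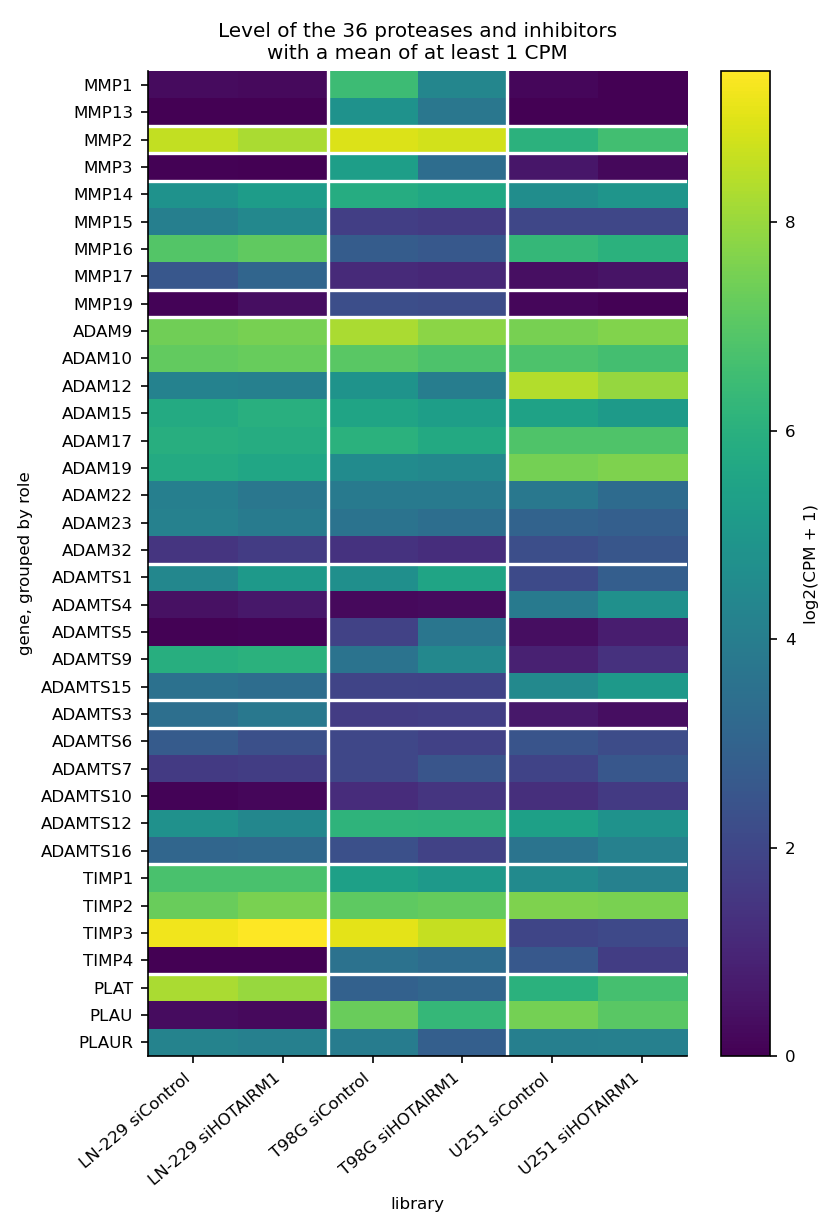
Level of the 36 tested genes, log2(CPM + 1) as colour, in the 6 libraries (columns, siControl and siHOTAIRM1 of each cell line), with white lines between roles and between cell lines. The paired columns of a line resemble each other more than those of different lines: TIMP3 is bright in LN-229 and T98G and dark in U251, PLAU is dark in LN-229 alone, and MMP1, MMP3 and MMP13 are raised in T98G alone.

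The 3 lines expressed different sets of these genes. To compare genes with each other, CPM was divided by the length of the transcript in kilobases. On that scale TIMP3 (141 CPM per kb, mean of both libraries), TIMP1 (136) and the gelatinase MMP2 (97.7) led in LN-229. In T98G the order was MMP2 (134 CPM per kb), TIMP3 (101) and ADAM9 (63.8), and in U251 it was PLAU (65.4 CPM per kb), TIMP2 (51.9) and ADAM9 (46.9). MMP2 alone made up 56.2 to 81.3% of the summed MMP level per kb in every library. The summed MMP level per kb was 0.348 to 0.433 times the summed TIMP level in LN-229, 0.918 to 1.10 times in T98G and 0.390 to 0.553 times in U251. MMP RNA alone was thus closest to TIMP RNA in T98G. The summed ADAM level was highest against the TIMPs in U251, at 1.95 and 2.15 times. It was at 0.328 and 0.312 times in LN-229 and at 0.589 and 0.560 times in T98G. ADAMTS genes were also highest against the TIMPs in U251, at 0.166 and 0.241 times.

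Differences between lines were tested over both libraries of each line, with limma on log2(CPM + 1), the siPOOL as a term and Benjamini-Hochberg adjustment over all 14294 tested genes, and a gene was called at an adjusted p under 0.05. These p-values rest on 2 libraries a line, which share a cell line but not a siPOOL. The spread behind them is one that limma draws towards a trend over all genes. Between T98G and LN-229, 27 of 36 genes were called (12 higher in T98G, 15 lower), against 54.9% of all tested genes (24.1% higher, 30.8% lower). Between U251 and LN-229, 26 of 36 were called (13 higher in U251, 13 lower), against 60.6% of all tested genes (36.7% higher, 23.9% lower). Between U251 and T98G, 28 of 36 were called (12 higher in U251, 16 lower), against 64.2% of all tested genes (41.0% higher, 23.1% lower). The lines were far apart over the whole transcriptome, and the counts are to be read against these shares. In all 3 pairs 15 of the 36 genes were called, and ADAM22 and TIMP2 were called in none. The share of all tested genes called in all 3 pairs was not counted, so the 15 cannot be read against one.

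TIMP3, the inhibitor that stays bound to the matrix, was the gene with the widest range. Its siControl and siHOTAIRM1 libraries held 600.1 and 699 CPM in LN-229, 540.0 and 390.3 CPM in T98G, and 2.94 and 3.24 CPM in U251. Both U251 libraries lay far below the other four, and U251 was lower than LN-229 by a log2 difference of -7.31 (SE 0.19, adjusted p = 1.2e-26 in limma). TIMP3 made up 42.2 and 44.9% of the summed TIMP level per kb in LN-229, 54.4 and 48.3% in T98G, and 0.741 and 0.937% in U251. TIMP2 held 61.6 and 67.2% in U251, at a level near that of the other lines.

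TIMP2, which inhibits MMP2 and also takes part in its activation by MMP14, was nearly level across the lines, at 156 and 185 CPM in LN-229, 137 and 146 CPM in T98G, and 194 and 185 CPM in U251. TIMP1, a soluble inhibitor of most secreted MMPs, stepped down from 105 and 104 CPM in LN-229 to 39.9 and 33.1 CPM in T98G and 21.7 and 16.9 CPM in U251, with no overlap between lines and all 3 pairs called. TIMP4 was at 10.7 and 9.16 CPM in T98G and at 5.05 and 2.28 CPM in U251, and in LN-229 it had 0 and 1 read, which is below the 3 reads taken as detectable.

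The plasminogen activators also divided the lines. PLAU, the urokinase gene, was at 0.249 and 0.173 CPM in LN-229, at 157 and 78.2 CPM in T98G and at 178 and 129 CPM in U251. LN-229 thus had almost none, and the log2 difference to it was 6.53 in T98G (SE 0.19, adjusted p = 6.1e-26 in limma) and 6.98 in U251 (SE 0.19, adjusted p = 1.4e-26 in limma). PLAT, the tissue-type activator, ran the other way, with 300.1 and 252 CPM in LN-229, 6.67 and 7.59 CPM in T98G, and 64.9 and 102 CPM in U251. Of the summed level per kb of both activators, PLAT made up 99.9% in both LN-229 libraries, while PLAU made up 96.8 and 93.1% in T98G and 78.2 and 62.3% in U251. The receptor PLAUR varied less, between 6.24 and 17.9 CPM, and LN-229 had the receptor at 17.9 and 16.4 CPM with almost no PLAU.

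**Figure D2:**
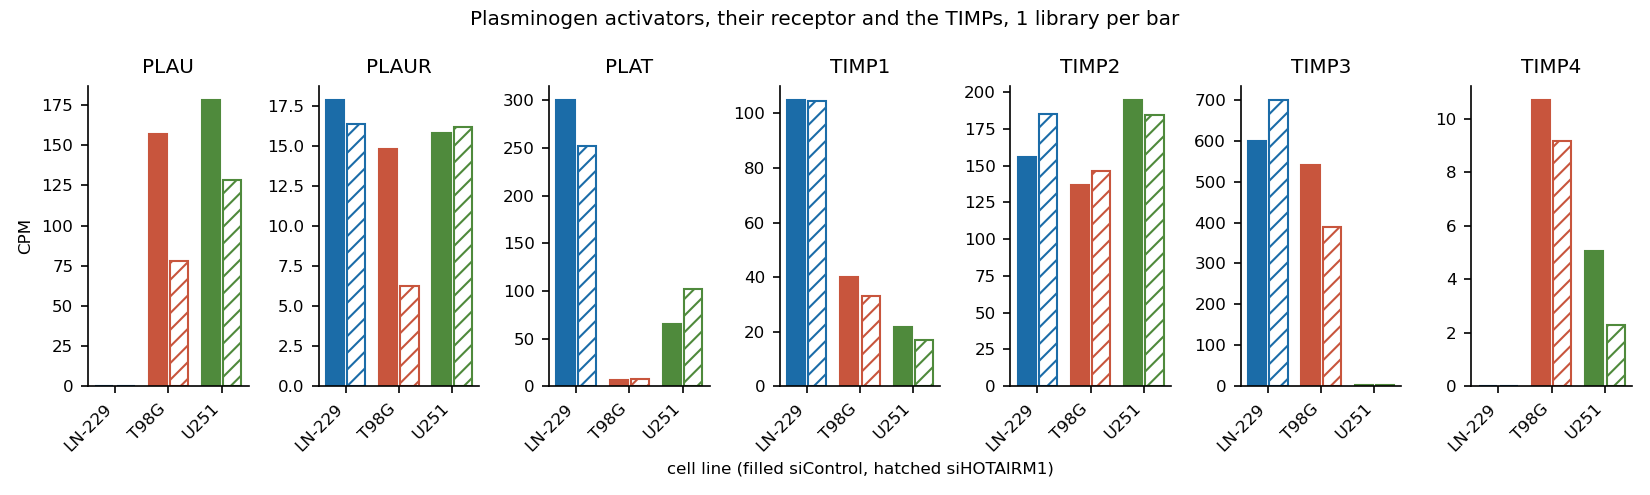
CPM of PLAU, PLAUR, PLAT and the 4 TIMPs, 1 bar per library, with filled bars for siControl and hatched bars for siHOTAIRM1, and an axis of its own for each gene. PLAU is at most 0.249 CPM in LN-229, PLAT is lowest in T98G, and TIMP3 is near 3 CPM in U251 against 390.3 CPM or more in the other lines.

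Among the MMPs, the membrane-type enzyme MMP16 was at 120 and 140 CPM in LN-229 and at 77.2 and 63.9 CPM in U251 but at 5.69 and 5.05 CPM in T98G. MMP14, the main cell-surface activator of proMMP2, was present in all 6 libraries, at 27.4 and 36.3 CPM in LN-229, 56.7 and 48.3 CPM in T98G, and 23.6 and 29.1 CPM in U251. MMP2 itself was at 383 and 304 CPM in LN-229, 501 and 441 CPM in T98G, and 66.6 and 94.6 CPM in U251, which was lower than both other lines (log2 difference to LN-229 -2.09, SE 0.22, adjusted p = 2.8e-10 in limma). MMP9, the other gelatinase, stayed below the mean asked for testing. It reached 0.579 and 0.316 CPM in T98G and 0.0566 and 0.0289 CPM in LN-229, and had 0 reads in both U251 libraries, which allows up to 0.0574 and 0.0296 CPM.

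Some ADAM genes varied little between lines and others widely. ADAM10, which releases Notch and cadherin ectodomains, lay between 98.6 and 151 CPM in all 6 libraries. ADAM17, the TNF convertase, lay between 53.1 and 64.8 CPM in LN-229 and T98G and was at 115 and 116 CPM in U251. ADAM9, at 168 to 303 CPM, differed in 1 pair of lines. ADAM12 stood apart in U251, with 327 and 246 CPM against 17.0 and 16.2 CPM in LN-229 and 27.9 and 15.2 CPM in T98G. ADAM19 was also highest in U251, with 175 and 196 CPM against 20.1 to 53.7 CPM in the other lines.

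Among ADAMTS genes, ADAMTS9 was at 59.5 and 64.8 CPM in LN-229, 11.1 and 20.0 CPM in T98G, and 0.842 and 1.56 CPM in U251. ADAMTS4 was high in U251 alone, at 13.97 and 26.0 CPM, and at no more than 0.539 CPM in the other 4 libraries. ADAMTS5 was above 1 CPM in T98G alone.

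Knock-down of HOTAIRM1 was the second comparison, tested over the 3 lines with limma and the cell line as block. Of the 36 genes 4 passed, with ADAMTS1 and ADAMTS5 higher and MMP1 and MMP3 lower in the siHOTAIRM1 libraries, against 2.0% of all tested genes (0.413% higher, 1.59% lower). At an unadjusted p under 0.05, 15 of the 36 passed, 6 higher and 9 lower, against 18.3% of all tested genes (4.19% higher, 14.2% lower). After median centring that split was 6 higher and 3 lower, beside 1315 higher and 1294 lower among all 14294 tested genes. With upper quartile scaling it was 7 higher and 3 lower, beside 1572 higher and 1009 lower. The median change of the 36 genes was -0.05, beside -0.07 for all tested genes. The difference had the same sign in all 3 lines for 15 of the 36 genes (41.7%, with 6 above and 9 below 0), beside 39.5% of all tested genes. Of the 4 called genes, ADAMTS1 alone had like changes in every line. The other 3 had most of theirs in T98G on this scale.

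**Figure D3:**
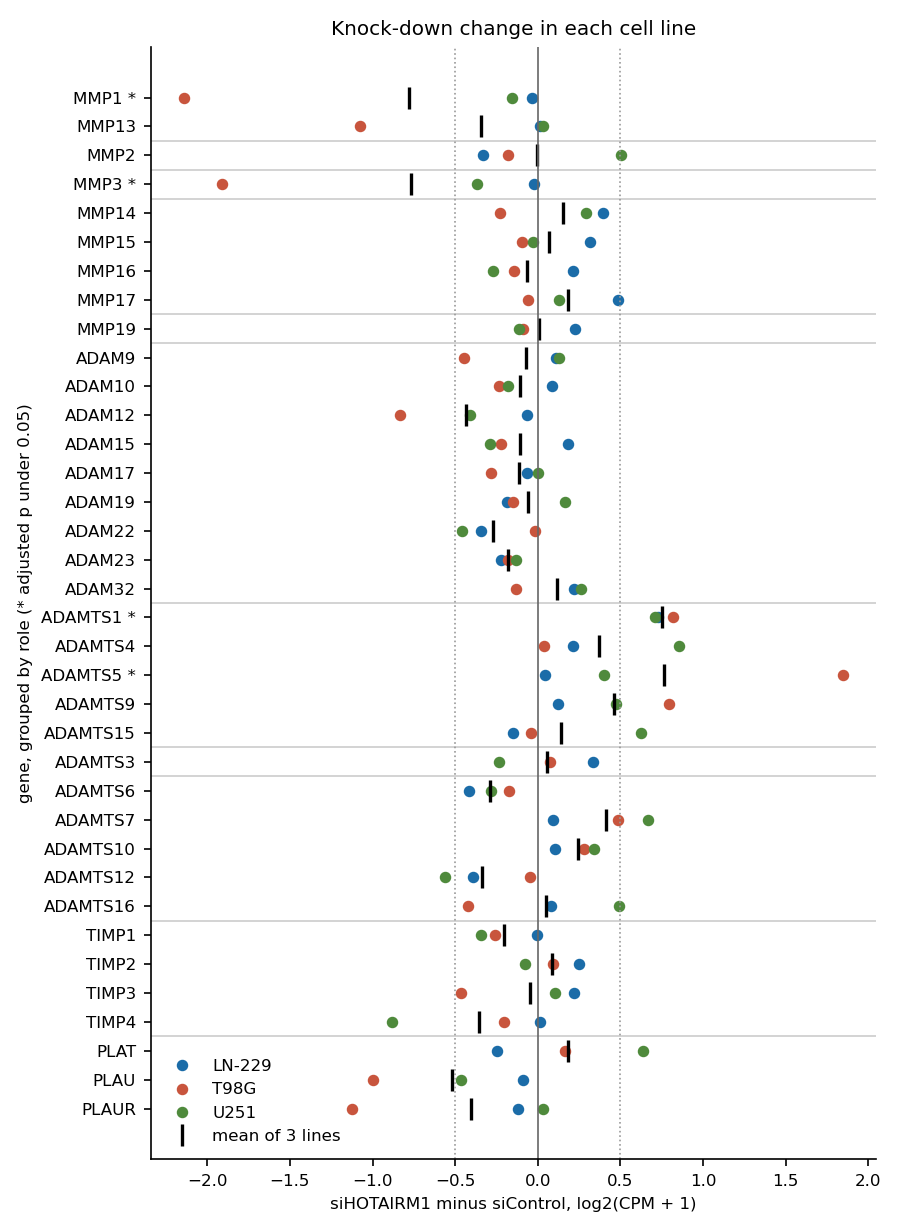
Difference of log2(CPM + 1), siHOTAIRM1 minus siControl, for the 36 tested genes in LN-229 (blue), T98G (red) and U251 (green), with the mean of the 3 lines as a black bar, an asterisk for an adjusted p under 0.05 and dotted lines at -0.5 and 0.5. The 3 points of ADAMTS1 lie together at 0.71 to 0.81, while those of ADAMTS5, MMP1 and MMP3 have the T98G point at 1.85, -2.14 and -1.91 and the other points between -0.37 and 0.40.

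ADAMTS1 (ENSG00000154734, chromosome 21 of hg38 from 26835755 to 26845409, minus strand) encodes a secreted protease of versican and aggrecan that can also inhibit angiogenesis. It was at 19.9 CPM in siControl and 33.6 CPM in siHOTAIRM1 cells in LN-229, at 25.2 and 45.1 CPM in T98G, and at 3.39 and 6.17 CPM in U251. The siHOTAIRM1 library was the higher one in each line, by 1.69-fold, 1.79-fold and 1.82-fold. The mean change rose by 0.75 on the log2(CPM + 1) scale (SE 0.14, adjusted p = 0.00204 in limma). The SD of the change over the 3 lines was 0.06, well below the change. With each gene's own spread over the lines in place of the one that limma draws towards a trend over all genes, its unadjusted p was 0.00195 and its adjusted p 0.637, since 2 degrees of freedom remained. Without T98G no gene of the whole table was called, and the change of ADAMTS1 was 0.72 (adjusted p = 0.525 in limma).

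ADAMTS5 (ENSG00000154736, chromosome 21 from 26917922 to 26967088, minus strand), the major aggrecanase of cartilage, lies 72.5 kb from ADAMTS1. It went from 2.62 to 12.03 CPM in T98G, from 0.287 to 0.702 CPM in U251 (15 and 71 reads) and from 0.034 to 0.0673 CPM in LN-229 (3 and 7 reads). The fold was 4.59 in T98G and 2.44 in U251, and in LN-229 the counting interval of the log2 ratio, -0.96 to 2.94, included 0. Its mean change was 0.77 (SE 0.18, adjusted p = 0.0165 in limma), and the SD over the lines, 0.95, was larger than that. With moderation that spares genes of unusual spread (robust moderation in limma), the adjusted p was 0.589.

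The other proteoglycan-cutting ADAMTS enzymes showed no call. Of the 5 tested, 2 were called higher, beside 0.413% of all tested genes, and 3 did not pass. The median change of the 5 was 0.46. All 5 means were above 0, beside 5180 of the 14294 tested genes. ADAMTS9 was at 1.09, 1.80 and 1.85 times its siControl level in LN-229, T98G and U251 (mean change 0.46, adjusted p = 0.0900 in limma). ADAMTS4 was at 0.329 and 0.539 CPM in LN-229, 0.188 and 0.220 CPM in T98G, and 13.97 and 26.0 CPM in U251 (mean change 0.37, adjusted p = 0.152 in limma). ADAMTS15 was higher in U251 alone, at 21.1 and 33.0 CPM, beside 10.6 and 9.48 CPM in LN-229 and 2.88 and 2.76 CPM in T98G.

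**Figure D4:**
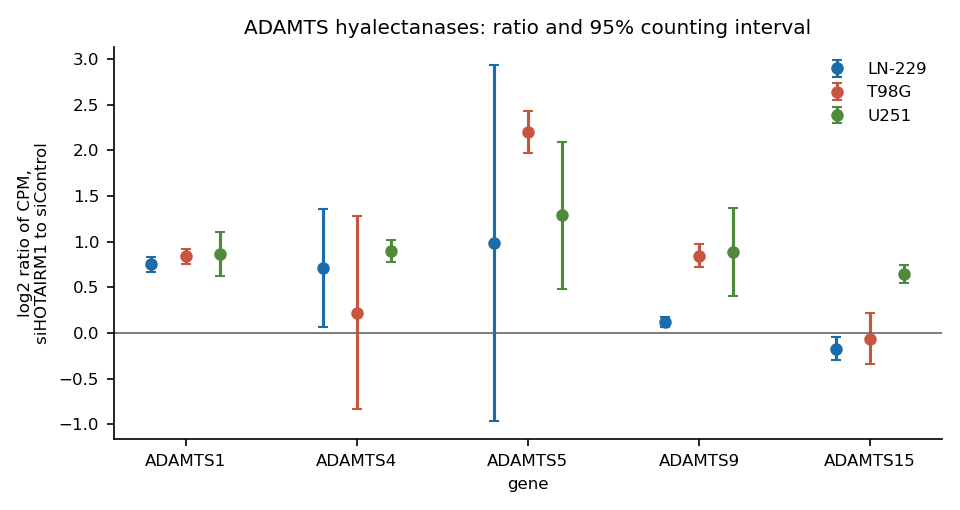
Log2 ratio of CPM, siHOTAIRM1 to siControl, for the 5 tested proteoglycan-cutting ADAMTS genes in each line, with bars for the 95% counting interval, which leaves out the spread between libraries. ADAMTS1 lies at 0.75 to 0.86 in all 3 lines, whereas ADAMTS5 is highest in T98G with wide bars in LN-229, and the ADAMTS15 point is above 0 in U251 alone.

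Of the 5 tested ADAMTS genes with other or less known substrates, 0 passed in limma, and 4 had an unadjusted p under 0.05, beside 18.3% of all tested genes. ADAMTS7, a protease of cartilage oligomeric matrix protein, was at 2.07 and 2.27 CPM in LN-229, 3.04 and 4.66 CPM in T98G, and 2.73 and 4.93 CPM in U251 (mean change 0.41, adjusted p = 0.103 in limma). Its reads were not whole numbers, and pseudogene copies of it are known, so its level is uncertain. ADAMTS12 (mean change -0.34) and ADAMTS6 (mean change -0.29) had lower siHOTAIRM1 values in every line, with adjusted p of 0.206 and 0.252 in limma. Relative to the median gene of T98G the direction there turned, to 0.14 for ADAMTS12 and 0.02 for ADAMTS6.

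MMP1 (interstitial collagenase, ENSG00000196611) and MMP3 (stromelysin, which also activates proMMP1) are neighbours on chromosome 11, on the minus strand from 102789401 to 102798160 and from 102835801 to 102843609. In T98G, MMP1 was at 87.6 CPM in siControl and 19.1 CPM in siHOTAIRM1 cells, 4.60-fold lower. It was at 0.204 and 0.173 CPM in LN-229 (18 reads each) and at 0.115 and 0 CPM in U251 (6 and 0 reads). MMP3 was at 38.4 and 9.47 CPM in T98G, 4.05-fold lower, and at 0.498 and 0.158 CPM in U251 (26 and 16 reads), with 3 and 2 reads in LN-229. Levels of both were highest in T98G. In U251 MMP3 was 3.15-fold lower, with a counting interval of the log2 ratio from -2.55 to -0.76, which is a change of -0.37 on the log2(CPM + 1) scale.

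The mean change was -0.78 for MMP1 (SE 0.21, adjusted p = 0.0442 in limma) and -0.77 for MMP3 (SE 0.19, adjusted p = 0.0243 in limma). The SD over the lines was 1.18 and 1.01, larger than the changes, and robust moderation gave adjusted p of 0.667 and 0.604 in limma. Without T98G, the changes were -0.10 and -0.20, and without LN-229 the adjusted p of MMP1 was 0.0545 in limma. Relative to the median gene of T98G, the change there was -1.95 for MMP1 and -1.72 for MMP3. The antisense pseudogene WTAPP1, which shares 8.14% of the exon bases of MMP1, was listed at 0 in all libraries. MMP3 and MMP10 are close relatives between which the quantification could divide reads, and MMP10 was at 0.153 CPM or less throughout.

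Both genes belong to a cluster of 9 MMP genes on chromosome 11 of hg38 that runs for 435 kb, from 102520508 to 102955732, in the order MMP7, MMP20, MMP27, MMP8, MMP10, MMP1, MMP3, MMP12 and MMP13. Summed over the cluster, T98G had 154 CPM in siControl and 41.4 CPM in siHOTAIRM1 cells, 3.72-fold lower, and the other 4 libraries had 0.385 to 1.03 CPM. MMP13 (collagenase 3) was at 27.5 and 12.5 CPM in T98G and had at most 2 reads in any other library (mean change -0.35, adjusted p = 0.215 in limma). MMP12 (macrophage elastase) was at 0.507 and 0.110 CPM in T98G (35 and 8 reads). The 4 genes at the end of the cluster, MMP1, MMP3, MMP12 and MMP13, were all lower after knock-down in this line. So were MMP10 (3 and 0 reads) and MMP8 (4 and 1 reads), which makes 6 of the 9, beside 27 of the 36 tested genes. MMP7 was at 0.145 and 0.220 CPM in T98G (10 and 16 reads). MMP8 (neutrophil collagenase) was the cluster gene with the most reads in LN-229, 25 in siControl and 74 in siHOTAIRM1 cells. MMP8 and MMP12 were chosen here after their values were seen.

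**Figure D5:**
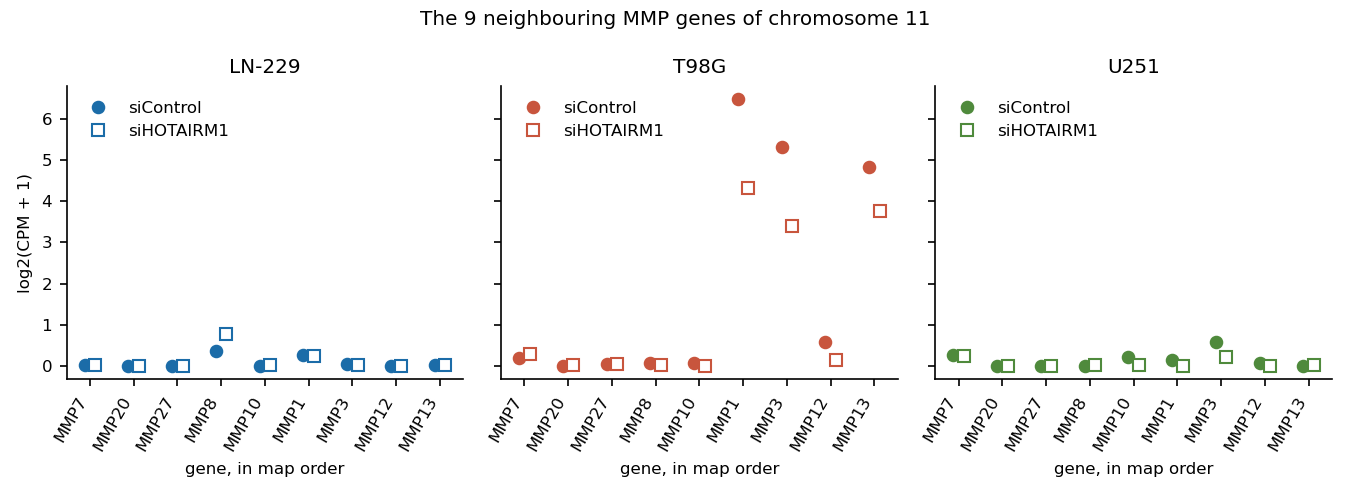
Log2(CPM + 1) of the 9 MMP genes of chromosome 11 in map order (not to scale) in LN-229, T98G and U251, with filled circles for siControl and open squares for siHOTAIRM1. MMP1, MMP3 and MMP13 stand above all others in T98G, each with the open square below the filled circle, while every gene in LN-229 and U251 is below 1 on this scale.

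PLAU, whose product activates plasminogen, was lower in the siHOTAIRM1 library of every line, at 2.01-fold in T98G and 1.38-fold in U251, and with 22 and 18 reads in LN-229, where the counting interval of the log2 ratio (-1.42 to 0.37) included 0. The mean change was -0.52 (SE 0.15) and missed the threshold (adjusted p = 0.0653 in limma). Robust moderation gave an adjusted p of 0.0151 in limma and a pseudocount of 0.1 gave 0.00728. Median centring gave 0.190 in limma, upper quartile scaling 0.223, no filter 0.677 and the fit without T98G 0.635. With each gene's own spread the adjusted p was 0.637. Relative to the median gene the change of PLAU was -0.81 in T98G and -0.44 in U251. The antisense gene C10orf55 shares 31.0% of the PLAU exon bases and was at 0.632 CPM or less in every library. PLAUR was at 14.8 and 6.24 CPM in T98G, 2.37-fold lower, but at 17.9 and 16.4 CPM in LN-229 and 15.8 and 16.2 CPM in U251 (mean change -0.41, adjusted p = 0.184 in limma). PLAT was 1.57-fold higher in U251 and 1.19-fold lower in LN-229.

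Within T98G, 6 of the 36 genes were lower by at least 0.5 on the log2(CPM + 1) scale (MMP1, MMP3, MMP13, PLAU, PLAUR and ADAM12), beside 8.26% of all tested genes, and 3 were higher (ADAMTS1, ADAMTS5 and ADAMTS9), beside 0.644%. Relative to the median gene of T98G the change was -0.89 for MMP13, -0.94 for PLAUR and -0.64 for ADAM12, and 1.005 for ADAMTS1, 2.04 for ADAMTS5 and 0.98 for ADAMTS9. On that footing ADAMTS7 also passed 0.5, at 0.68. CD68 was lower there too, and in U251, as given above. The part of CD68 in these values was not tested. In U251, 6 were higher (ADAMTS1, ADAMTS4, ADAMTS7, ADAMTS15, MMP2 and PLAT), beside 6.56% of all tested genes, and 2 were lower (ADAMTS12 and TIMP4), beside 11.9%. In LN-229, ADAMTS1 alone was higher by that much, beside 1.47%, and none was lower, beside 0.993%. None of these within-line counts has a test. In these bulk libraries fewer expressing cells and less RNA per cell cannot be told apart.

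AP-1 (dimers of FOS and JUN proteins) is a textbook regulator of MMP genes, of PLAU and of PLAUR. A loose form of its motif, TGANTCA with any base at N, reads the same on both strands. It was searched in the 300 bases from 250 before to 50 after the start of each gene in RefSeq (GRCh38.p14). Of the 40 genes with an entry, 5 (12.5%) had a match, beside 7.71% of all 35116 promoter windows. The first share counts genes and the second counts windows, so they are not on the same footing where a gene has several windows. The matched bases were TGAGTCA in PLAUR and MMP7 and TGAATCA in ADAMTS12, MMP10 and MMP20. The match and 11 bases on each side are shown 5′ to 3′ on the strand of the gene, with the motif in capitals, for the tested genes PLAUR and ADAMTS12 and for MMP7 and MMP10 of the chromosome 11 cluster, where it begins 67 bases before the start in both.
PLAUR, chr19:43670338-43670366: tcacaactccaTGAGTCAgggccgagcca
ADAMTS12, chr5:33892057-33892085: acactgtcagcTGAATCActcccctttta
MMP7, chr11:102530797-102530825: aaacactcaaaTGAGTCAcctatttccac
MMP10, chr11:102780678-102780706: aaacacatgcaTGAATCAtactgttggtg

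These 4 lie on the minus strand. PLAUR was 2.37-fold lower after knock-down in T98G and ADAMTS12 was at 69.8 and 67.4 CPM in that line. PLAU had an entry and no match, which says only that these letters are not in this window. MMP20 was the other match. No entry was found for MMP1, MMP3, MMP13, ADAMTS1 or ADAMTS5, among 30 of the 70 genes.

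No ADAM, TIMP or membrane-type MMP gene passed in the knock-down comparison (0 of 9, 0 of 4 and 0 of 4 in limma). At an unadjusted p under 0.05 there was 1 ADAM gene (ADAM12), 1 TIMP (TIMP4) and 0 membrane-type MMP genes, beside the 18.3% of all tested genes. The ADAM changes ran from -0.44 for ADAM12 (adjusted p = 0.113 in limma) to 0.12. ADAM12, which sheds growth factor precursors and binds integrins, was at 27.9 and 15.2 CPM in T98G and 327 and 246 CPM in U251, and at 17.0 and 16.2 CPM in LN-229. Mean changes of ADAM10 (-0.11), ADAM17 (-0.12) and ADAM9 (-0.07) were smaller than their SE, and those of ADAM9 and ADAM10 changed sign under other scalings. The TIMP changes ran from -0.36 for TIMP4 to 0.09 for TIMP2. TIMP4 was at 5.05 and 2.28 CPM in U251, 2.21-fold lower, and TIMP3 was at 0.723 times its siControl level in T98G but at 1.16 times in LN-229. MMP14 was 1.33-fold and 1.23-fold higher in LN-229 and U251 and 1.17-fold lower in T98G (mean change 0.15, adjusted p = 0.613 in limma). A missing call does not show that a gene stayed level.

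Of 50 other genes of pericellular proteolysis that are not in these families (cathepsins, proprotein convertases, tetraspanins, ADAMTS-like proteins and others), 35 were tested. Of these, 2 passed in limma, beside 2.0% of all tested genes. Among them HPSE, the heparan sulfate-cutting heparanase, was called lower, beside 1.59% of all tested genes. It was at 4.62 CPM in siControl and 3.22 CPM in siHOTAIRM1 cells in LN-229, at 9.12 and 4.15 CPM in T98G, and at 11.2 and 8.08 CPM in U251. All 3 lines had the lower value after knock-down, and the mean change was -0.60 (SE 0.15, adjusted p = 0.0243 in limma).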

How the data were processed

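RNA was measured in 6 libraries, 1 per cell line and siPOOL. The authors prepared them from 500 ng of total RNA with an unstranded TruSeq kit and sequenced 101 cycles. Reads were trimmed by the authors (13 bases from the start, 1 from the tail), then aligned to hg38 with STAR 2.4.1d, unaligned reads with Bowtie 2, and counted on Ensembl release 84 in Partek with an Expectation-Maximization step. The deposited values are CPM with 0.0001 added, which was subtracted here. The step between low values gave the worth of 1 read; 67.5 to 74.3% of values were whole reads (within 0.01 reads), so no count test was used. Values of a library summed to 42.9 to 67.2% of the full CPM scale. Antisense overlaps cannot be told apart without strand.

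The 14294 genes averaging 1 CPM or more were fitted with limma 3.58.1 (R 4.3.3) on log2(CPM + 1) with a mean-variance trend and Benjamini-Hochberg adjustment, threshold 0.05, two-sided, with the cell line as block for the knock-down and the siPOOL as a term between lines. The pseudocount makes a fold change of low genes smaller. The block is set by the cell line: after subtraction of condition means, r was 0.948 to 0.967 between libraries of a line and -0.505 to -0.467 between libraries of other lines. Subtracting a mean over 3 libraries by itself pushes the values between lines below 0, so those carry no weight for the block. Replicates are cell lines, and limma drew each gene's spread over them towards a trend over all genes. The trend weighed as 32.5 degrees of freedom and a gene's own spread as 2. P-values in limma therefore rest mostly on the trend, and less on a gene's spread between the 3 lines. Intervals are at 95% and cover counting error only. Gene positions and transcript lengths (the Ensembl canonical transcript) came from GENCODE v44, a later annotation than the authors' one. The fits were tested on simulated data.

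The 25 genes named by rule were those past the threshold, the 5 largest rises and 5 largest falls among genes with 1 direction in all lines, 16 well-known members, the 3 highest per line, the 8 with the widest range between lines, and the extreme changes of each line. Members, roles and lists were chosen with earlier results of these data known. Alternatives were the block, pseudocount, filter, scaling, step size and each line or library left out. Robust moderation and each gene's own spread were chosen after seeing the data. Protein motifs were planned and not analysed here. Of the other proteolysis genes, only those past the threshold were to be named, and 1 of these is not reported here.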

Additional observations from a re-analysis of the deposited data

Results flagged for a closer look

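MMP2 was higher after knock-down in U251 and lower in LN-229: relative to the median gene of each line, the change was 0.53 in U251 and -0.34 in LN-229, a difference of 0.871 on the log2(CPM + 1) scale. PLAT had the same pattern, with 0.67 in U251 and -0.26 in LN-229, a difference of 0.927. In both genes the counting intervals of the 2 lines lay on opposite sides of 0. With 1 library per line and condition, neither difference was tested.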

How the results depend on the processing

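The knock-down calls depended on the setting. Against 286 genes and 4 of the proteases and inhibitors called, a fit with no replicate block called 0 and 0 (29 and 0 at an unadjusted p under 0.05), no filter 0 and 0 (2477 and 5 unadjusted), upper quartile scaling 0 and 0 (2581 and 10 unadjusted), and each gene's own spread 0 and 0 (896 and 2 unadjusted). Median centring called 41 genes and 1 of the family, ADAMTS1, and moved the higher share of the calls from 20.6 to 36.6%. A pseudocount of 0.1 called 683 genes and 6 of them, with ADAMTS9 and PLAU added. Robust moderation called 778 genes and 4 of them (ADAM12, ADAMTS1, ADAMTS9 and PLAU), 1 of them shared with the first fit. With each line left out in turn, 0 to 271 genes and 0 to 4 of them were called. Without T98G both counts were 0 (1206 and 5 unadjusted), and without U251 the genes numbered 149. The causes were not tested.

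Between lines, the proteases and inhibitors called stayed within 1.5 times of 27, 26 and 28 under every setting run. The genes called between T98G and LN-229 ranged from 5107 to 8046 with 1 library left out, against 7851.

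Within lines, a pseudocount of 0.1 gave 5 higher in LN-229, 10 higher and 6 lower in U251. A step of 1 in place of 0.5 gave 0 higher in LN-229, 1 higher in T98G, and 0 higher and 0 lower in U251.

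Small changes turned sign, none of them called in the first fit except ADAMTS5 between U251 and LN-229. With median centring the knock-down changes were 0.00943 for ADAM9, 0.0105 for MMP16, 0.0739 for MMP2 and 0.0310 for TIMP3, and with upper quartile scaling 0.0410, 0.0292, 0.105 and 0.0537, and 0.00019 for ADAM10. With a line left out they ranged from -0.17 to 0.12 for ADAM9, -0.53 to 0.0197 for MMP13, -0.21 to 0.0322 for MMP16, -0.26 to 0.16 for MMP2 (0.0840 without T98G), -0.0433 to 0.40 for PLAT and -0.18 to 0.16 for TIMP3. With a library left out, T98G minus LN-229 ranged from -0.0036 to 0.59 for ADAM12 and -0.11 to 0.14 for ADAM17. U251 minus LN-229 ranged from -0.0086 to 0.29 for ADAM9, -0.0453 to 1.03 for ADAMTS5, -0.73 to 0.39 for MMP1, -0.29 to 0.27 for MMP13, -0.20 to 0.92 for MMP3 and -0.42 to 0.24 for PLAUR. U251 minus T98G ranged from -0.21 to 0.17 for ADAMTS7.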
